A study of Mus musculus with 4 samples.

Results

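The genes described here encode the mevalonate pathway enzymes, the cytosolic route from acetyl-CoA by way of mevalonate to farnesyl diphosphate. Of 8 listed genes, 7 had at least 1 probe set annotated with that gene symbol alone: Hmgcs1, Mvk, Pmvk, Mvd, Idi1, Fdps and Ggps1. The other listed gene, Acat2, whose product joins 2 acetyl-CoA into acetoacetyl-CoA, had no probe set under this rule and was not analysed here. The 7 genes are among 18194 genes measured under the same rule, and each was represented by its probe set of highest mean log2 signal over the 4 arrays.

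In this pathway Hmgcs1 makes HMG-CoA, Mvk and Pmvk phosphorylate mevalonate in turn, and Mvd forms isopentenyl diphosphate, the isoprene building block. Idi1 interconverts that block with its isomer, Fdps joins the blocks to farnesyl diphosphate, and Ggps1 extends farnesyl diphosphate to the geranylgeranyl form, a step beyond the sterol route. Farnesyl diphosphate feeds cholesterol, dolichol, ubiquinone and the prenyl anchors of proteins. The brain makes its own cholesterol, because the blood-brain barrier keeps out that of plasma, and the sterol-forming part of the route is a classical target of the transcription factor Srebp-2.

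Cerebral RNA of mouse pups was measured on Affymetrix Mouse 430 2.0 arrays, with 1 pooled sample and 1 array for each of 4 groups. The 2aECKO pool came from P9 mice carrying floxed Mfsd2a and the endothelial driver Tie2-cre, and its 2afl/fl control came from P9 Mfsd2afl/fl mice. The 2aiECKO pool came from P8 mice carrying floxed Mfsd2a and the driver Cdh5ERT2-cre, whose recombinase was activated after birth by 4-hydroxytamoxifen (4-OHT), and its control came from P8 Mfsd2afl/fl mice that were given 4-OHT. Each pool combined the cerebral RNA of 5 to 6 animals. Both alleles of Mfsd2a, the transporter of lysophosphatidylcholine-bound docosahexaenoic acid, were floxed in every group, and the groups of a pair differed in Cre. Tie2-cre is also active in blood cell lineages. The 2aiECKO array has the source label 2aECKO but the title and genotype of 2aiECKO, which were followed.

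With 1 array per group no test across samples was possible, no array difference has a replicate check, and none of the folds below carries an error. The paper also counted RNA of Srebp target genes by Nanostring in the separate samples behind the pools. It reported Srebp-1 and Srebp-2 targets higher in 2aECKO, and only Srebp-1 targets in 2aiECKO. Those counts were not used here. At the Mfsd2a probe set 2aECKO had 410 against a control signal of 423, and 2aiECKO 299 against 369. Whether its probes lie within the floxed exons is unknown here, and Mfsd2a is not particular to endothelium, so these values do not check the labels. Of 5 cerebral markers, Emx1, Tbr1 and Neurod6 were measured, each with a signal of at least 207 on all arrays. The sorted log2 values of the 2 arrays of a pair differed by at most 0.071, but those of the controls by up to 0.79, which puts the pairs on separate scales, and every fold below is within a pair unless stated.

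The upstream sequences of the 5 measured genes that held CCAAT at least 2 times are shown first, because the study asked about genes under the control of Srebp factors. They are the bases just before the RefSeq start of transcription in build GRCm38.p6, read 5′ to 3′ on the strand of the gene. Capitals mark CCAAT on either strand (read as ATTGG on the opposite one), the binding motif of NF-Y, a usual partner of Srebp, and TCACNCCAC, the core of the sterol regulatory element.
Hmgcs1 (chr13:119690101-119690350, + strand): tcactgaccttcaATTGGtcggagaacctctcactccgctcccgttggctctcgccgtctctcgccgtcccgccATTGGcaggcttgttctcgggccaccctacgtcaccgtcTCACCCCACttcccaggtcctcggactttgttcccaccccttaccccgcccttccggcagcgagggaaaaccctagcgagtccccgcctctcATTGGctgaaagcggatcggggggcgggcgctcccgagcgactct
Mvk (chr5:114444019-114444263, + strand): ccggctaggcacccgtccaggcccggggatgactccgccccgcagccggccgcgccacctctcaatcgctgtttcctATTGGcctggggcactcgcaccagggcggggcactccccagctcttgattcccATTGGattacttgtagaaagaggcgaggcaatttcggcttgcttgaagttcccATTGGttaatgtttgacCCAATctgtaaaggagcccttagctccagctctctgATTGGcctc
Mvd (chr8:122443423-122443672, - strand): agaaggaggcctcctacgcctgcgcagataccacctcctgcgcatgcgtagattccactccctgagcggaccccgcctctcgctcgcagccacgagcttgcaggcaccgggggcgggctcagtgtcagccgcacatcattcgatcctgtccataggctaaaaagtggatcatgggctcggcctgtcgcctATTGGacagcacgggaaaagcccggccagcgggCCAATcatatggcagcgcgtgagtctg
Idi1 (chr13:8885356-8885605, + strand): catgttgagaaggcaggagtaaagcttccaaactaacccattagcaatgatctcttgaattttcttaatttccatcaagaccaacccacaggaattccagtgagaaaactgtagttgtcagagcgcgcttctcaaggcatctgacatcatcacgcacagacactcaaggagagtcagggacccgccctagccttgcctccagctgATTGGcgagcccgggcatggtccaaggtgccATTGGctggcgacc
Ggps1 (chr13:14063567-14063738, - strand): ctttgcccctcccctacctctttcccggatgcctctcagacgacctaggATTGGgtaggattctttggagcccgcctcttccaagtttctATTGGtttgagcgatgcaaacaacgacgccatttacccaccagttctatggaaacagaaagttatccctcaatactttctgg
The stretches of Mvk and Ggps1 are 245 and 172 bases long, since bases inside the annotated span of the gene were left out, and so the third CCAAT of Ggps1 is not shown.

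Motifs were counted in the full 250 bases before the start, for these genes and for Pmvk and Acat2, whose sequences are not shown. No window of Fdps was used here. CCAAT occurred 5 times before Mvk, 3 times each before Hmgcs1 and Ggps1, 2 times each before Mvd and Idi1, 1 time before the first of 2 starts of Pmvk and not before Acat2. Of the 7 listed genes with a window, 5 held it at least 2 times, as did 10.1 percent of all 32851 windows of the same length, and 6 held it at least 1 time, as did 33.8 percent. TCACNCCAC was found before Hmgcs1 alone, from 137 to 129 bases upstream, and in 1.05 percent of all windows. The GC box GGGCGG was found before 5 of the 7 genes and in 32.7 percent of all windows. Ggps1, whose fold in 2aECKO was the smallest, held as many CCAAT boxes as Hmgcs1. These matches are a description of letters, not of binding, and whether they bear on the folds was not tested.

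In 2aECKO the mevalonate genes lay above their control by small amounts, largest at Mvd and Fdps and nearly nil at Ggps1. Idi1, between Mvd and Fdps in the pathway, had a log2 fold of 0.21, near the 0.20 of Pmvk. In 2aiECKO they lay close to their control. Under the size rule of the study's methods, a gene counted as higher when its knockout signal was 50 or more and its fold 1.25 or more. Mvd and Fdps did so in 2aECKO, which makes 2 of 7 genes, against 2.04 percent of the 12426 genes whose mean signal was 50 or more, here called bright genes. In 2aiECKO 0 of 7 did, against 1.77 percent. By the mirror rule, a control signal of 50 or more and a fold of 0.8 or less, 0 of 7 were lower in either comparison, against 1.44 percent in 2aECKO and 0.523 percent in 2aiECKO. All 7 had a signal of at least 50 on all 4 arrays.

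**Figure D1:**
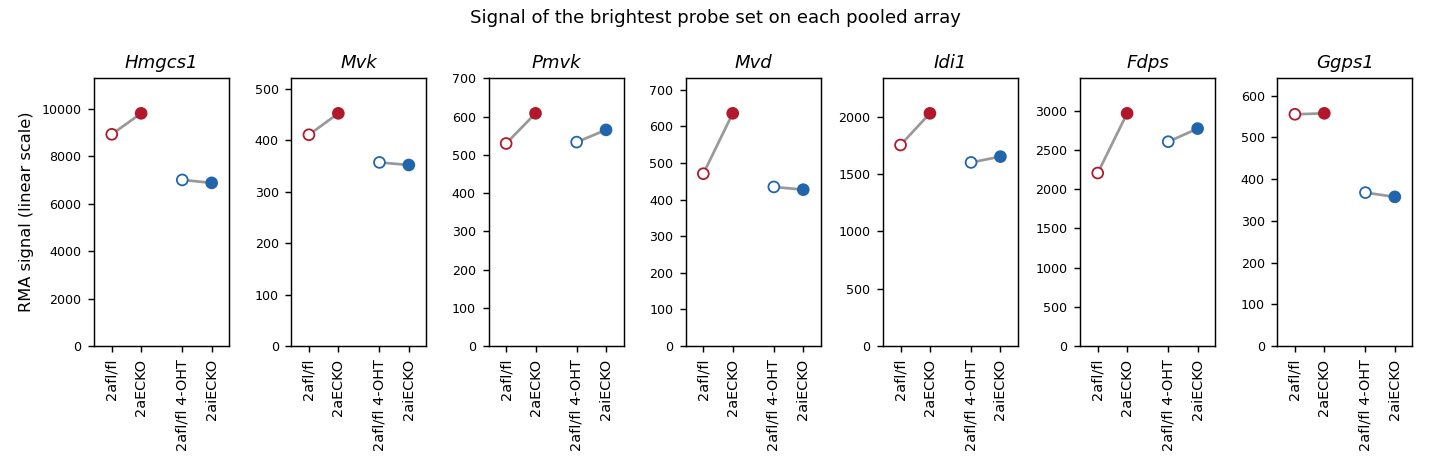
RMA signal on a linear scale (vertical axes from 0) of the brightest probe set of each mevalonate gene on the 4 pooled arrays; open points are controls, filled points knockouts, and a line joins the 2 arrays of a pair. Fdps and Mvd show the steepest lines in the 2aECKO pair, while in the 2aiECKO pair the filled point stands near the open one for every gene.

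Hmgcs1, the enzyme that makes HMG-CoA, had signals of 8921 in 2afl/fl, 9805 in 2aECKO, 6998 in 2afl/fl 4-OHT and 6875 in 2aiECKO. It was thus higher in 2aECKO, with a log2 fold of 0.14, and marginally lower in 2aiECKO, with a log2 fold of -0.026. It is the gene with most probe sets, 5. The 3 others of high signal gave log2 folds of 0.12, 0.21 and 0.25 for 2aECKO, and those for 2aiECKO were 0.048, 0.11 and 0.018. The direction in 2aECKO was thus shared by these 4, and in 2aiECKO the brightest alone was below 0. The remaining probe set was dim, with signals of 39.5 and 65.9 in the first pair and 14.8 and 14.1 in the second, and its log2 fold of 0.74 in 2aECKO was far from that of the bright ones.

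Mvk, the first kinase, had signals of 411 in 2afl/fl, 452 in 2aECKO, 357 in 2afl/fl 4-OHT and 352 in 2aiECKO. Its log2 folds were 0.14 (2aECKO) and -0.020 (2aiECKO), and its dimmer probe set gave 0.073 and -0.065. Pmvk, the second kinase, had signals of 530, 609, 533 and 565 on the arrays in the same order. Its log2 folds were 0.20 and 0.084 at its only probe set, so both knockout pools lay above their controls.

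Mvd, the decarboxylase, had signals of 471 in 2afl/fl, 636 in 2aECKO, 435 in 2afl/fl 4-OHT and 427 in 2aiECKO. Its log2 fold of 0.43 in 2aECKO, a fold of 1.35, was the largest of the 7, and that in 2aiECKO was -0.025. The second probe set had 365, 441, 454 and 443, with log2 folds of 0.27 and -0.034. Both probe sets thus stood higher in 2aECKO and near the control in 2aiECKO, but only the brighter, whose probes are of a design shared between transcripts, passed 1.25-fold.

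Idi1, the isomerase, had signals of 1755 in 2afl/fl, 2031 in 2aECKO, 1603 in 2afl/fl 4-OHT and 1654 in 2aiECKO. Its log2 folds were 0.21 and 0.045, and those of its second probe set 0.23 and 0.16. Here the probe sets matched in 2aECKO and both were above 0 in 2aiECKO.

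Fdps, the farnesyl diphosphate synthase, had signals of 2204 in 2afl/fl, 2965 in 2aECKO, 2603 in 2afl/fl 4-OHT and 2770 in 2aiECKO. For 2aECKO the log2 fold was 0.43, a fold of 1.35, and for 2aiECKO 0.090. Its second probe set never exceeded a signal of 5.26, so a single probe set carries these values. Ggps1 had signals of 555, 558, 368 and 357 on the 4 arrays, with log2 folds of 0.0060 and -0.041. At its 3 other probe sets the log2 folds were -0.11, -0.12 and -0.070 for 2aECKO, and -0.027, -0.035 and 0.12 for 2aiECKO. Ggps1 was the only measured gene of the pathway with no bright probe set clearly above the control in 2aECKO, and at 3 of its 4 probe sets it lay below it.

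**Figure D2:**
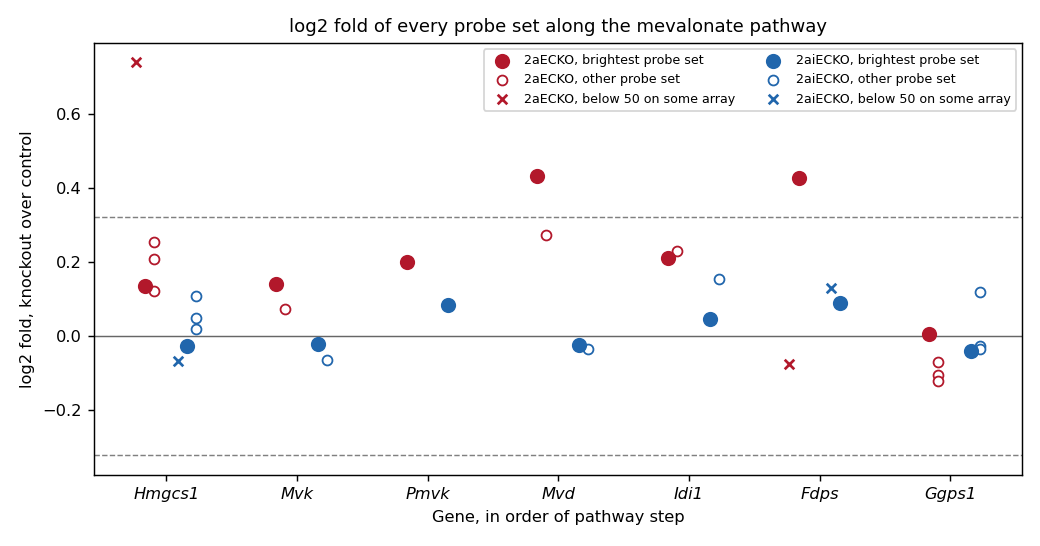
Log2 fold of knockout over control (vertical axis) for all 18 probe sets of the mevalonate genes in order of pathway step (horizontal axis), in 2aECKO (red) and 2aiECKO (blue); filled points are the brightest probe set of a gene, open points others that reached a signal of 50 on all arrays, crosses those below 50 on some array, and dashed lines mark 1.25-fold. From Hmgcs1 to Fdps every red circle lies above 0, and 2 of them, of Mvd and Fdps, lie above the upper dashed line.

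Over the 16 probe sets that reached 50 on all arrays, 13 had a log2 fold above 0 in 2aECKO and 8 in 2aiECKO. Without those of Ggps1 the numbers were 12 of 12 and 7 of 12. Probe sets of a gene share its transcripts and are not replicates.

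The median log2 fold of the 7 genes was 0.20 in 2aECKO, with a range from 0.0060 to 0.43, and -0.020 in 2aiECKO, with a range from -0.041 to 0.090. Over the 12426 bright genes the medians were -0.0066 and -0.0042, with robust SDs of 0.12 and 0.10. All 7 genes were above 0 in 2aECKO, against 46.3 percent of those genes, and 3 of 7 in 2aiECKO, against 46.4 percent. Read against that spread, Mvd and Fdps at their brightest probe sets in 2aECKO were among the highest: 0.821 and 0.837 percent of the genes had a log2 fold at least as high. For Idi1 and Pmvk this share was 6.12 and 6.8 percent, for Mvk and Hmgcs1 13.1 and 13.4 percent, and for Ggps1 45 percent. The second probe set of Mvd, with a log2 fold of 0.27 in 2aECKO, was not ranked. In 2aiECKO the same share ran from 19 percent for Fdps to 64.5 percent for Ggps1, so all 7 lay in the body of the distribution.

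**Figure D3:**
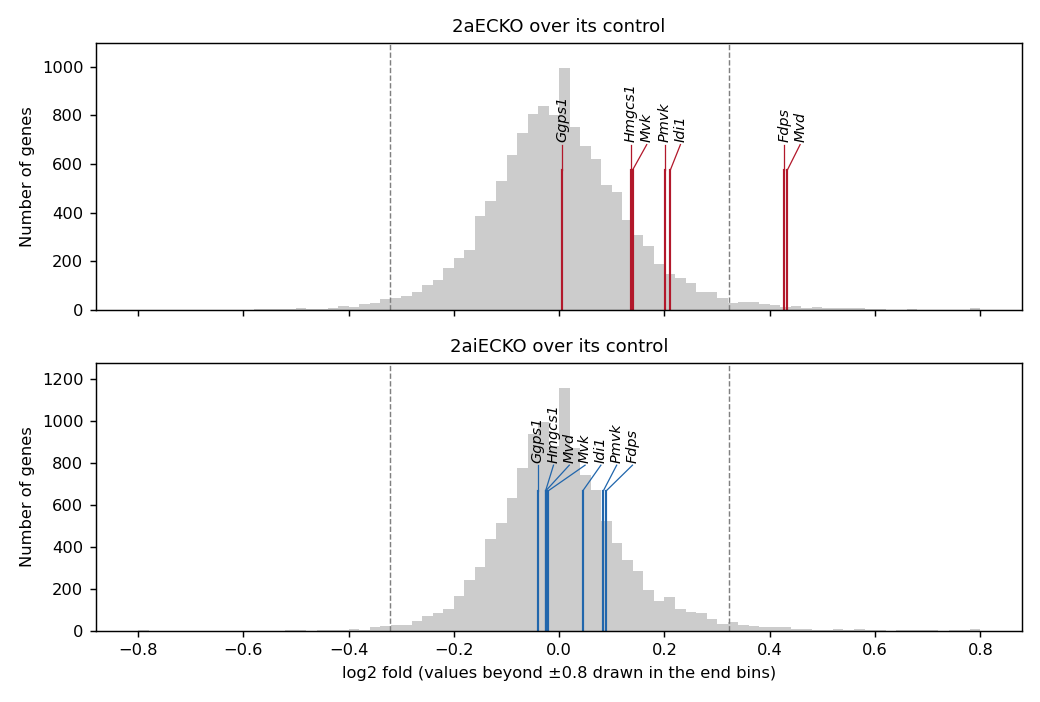
Number of genes (vertical axis) by log2 fold of knockout over control (horizontal axis) for the 12426 bright genes, in 2aECKO (top) and 2aiECKO (bottom); coloured lines mark the mevalonate genes and dashed lines 1.25-fold. In 2aECKO Fdps and Mvd lie beyond the right dashed line and Ggps1 at the centre, while in 2aiECKO all 7 lie between -0.041 and 0.090.

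Within a gene the log2 fold was larger in 2aECKO than in 2aiECKO for 7 of 7 genes, against 48.6 percent of the 12426 genes. The difference was largest for Mvd, at 0.46, followed by Fdps at 0.34. Idi1, Hmgcs1 and Mvk had 0.17, 0.16 and 0.16, Pmvk 0.12 and Ggps1 0.047. At other bright probe sets the difference was 0.31 for Mvd, from 0.073 to 0.24 for Hmgcs1, 0.075 for Idi1 and 0.14 for Mvk, and it was below 0 at the 3 dimmer probe sets of Ggps1. The median difference was 0.16. It depended on the control: with each knockout set against the other model's control it was 0.565 on the deposited scale and -0.0915 after quantile normalization over all 4 arrays, and against the mean of both controls on the latter scale it was 0.028. Age, Cre driver, time of deletion, 4-OHT, the animals pooled and the scale of the arrays differ between the pairs and cannot be told apart. In Hmgcs1, Mvk, Mvd and Ggps1 the folds of the models had opposite signs, as in 34.4 percent of the bright genes.

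The pairs share no array, which allowed the control pools to be set against each other as well. After quantile normalization over all 4 arrays, an alternative chosen with the deposited values, Fdps was higher in 2afl/fl 4-OHT than in 2afl/fl by 0.53 on the log2 scale, more than its log2 fold of 0.45 in 2aECKO on that scale. Its normalized log2 signal was 10.95 in 2afl/fl, 11.39 in 2aECKO, 11.48 in 2afl/fl 4-OHT and 11.57 in 2aiECKO. The 2afl/fl pool was thus the lowest of the 4, and 2aECKO lay below the other control. Pmvk showed the same order, with a difference of 0.32 between the controls and a log2 fold of 0.21. Mvd did not: its normalized log2 signals were 8.72, 9.16, 8.92 and 8.90 in the same order of arrays, so 2aECKO was the highest.

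The controls differed by 0.20 for Mvd, 0.17 for Idi1 and 0.12 for Mvk, higher in 2afl/fl 4-OHT, and by -0.11 for Hmgcs1 and -0.28 for Ggps1, lower there. The difference between the controls exceeded the log2 fold in 2aECKO for 3 of 7 genes, Pmvk, Fdps and Ggps1, against 70.5 percent of the 12426 genes. In 2aiECKO it exceeded the log2 fold for all 7, against 76 percent. Over these genes the control difference had a median of 0.061 and a robust SD of 0.24. The controls differ in age and 4-OHT, in the animals pooled and in the scale of their deposited values, which cannot be told apart. Whether quantile normalization removed all of the difference in scale was not tested.

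**Figure D4:**
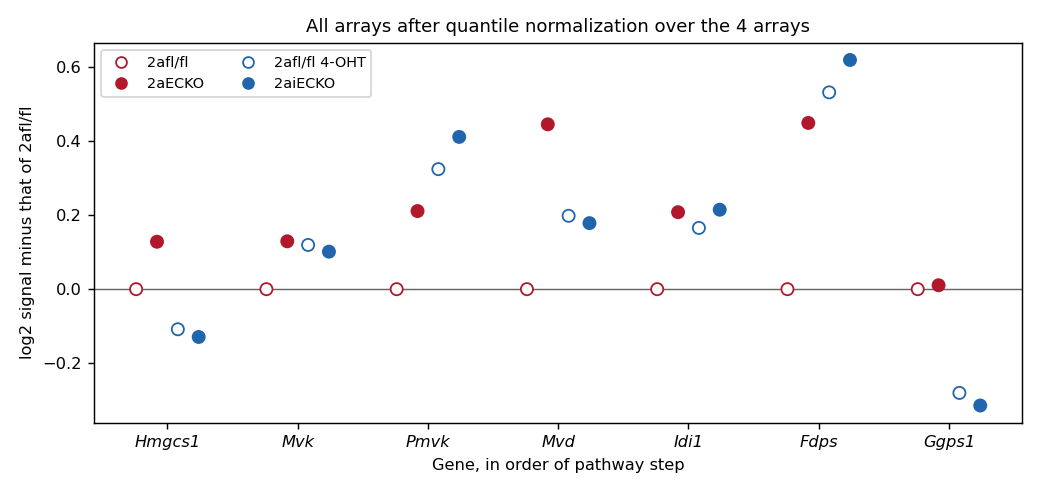
Log2 signal of each mevalonate gene minus that in 2afl/fl (vertical axis) after quantile normalization over the 4 arrays, for 2afl/fl (open red), 2aECKO (filled red), 2afl/fl 4-OHT (open blue) and 2aiECKO (filled blue). For Fdps and Pmvk both blue points lie above both red ones, and for Mvd the filled red point is the highest.

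Genes that use the products of the pathway or control it are given from lists. Of 12 listed enzymes from squalene to cholesterol, 11 were measured. By the size rule 2 were higher in 2aECKO, against 2.04 percent of the bright genes, and 0 in 2aiECKO, against 1.77 percent. Their median log2 folds of 0.23 and -0.0083 stood near those of the mevalonate genes. Lss, which closes the sterol rings, had 0.53 and 0.20, the highest of that list in both. Nsdhl, a demethylation enzyme, had 0.36 and -0.0083, and Fdft1, which condenses farnesyl diphosphate to squalene, 0.22 and -0.10. At a second bright probe set Lss had 0.28 and 0.12, and Fdft1 0.41 and -0.11. The lowest of that list was Tm7sf2, a sterol reductase, at -0.025 and -0.21.

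The enzymes that use farnesyl and geranylgeranyl diphosphate outside the sterol route had other medians. Of 15 listed genes of protein prenylation, dolichol and ubiquinone synthesis, 14 were measured, and 0 were higher or lower by the size rule in either comparison. Their medians were -0.0068 in 2aECKO and -0.029 in 2aiECKO. In each, 6 of 14 were above 0, against 46.3 and 46.4 percent of the bright genes. Fnta, a prenyltransferase subunit, was highest with 0.12 and 0.12. Its second bright probe set gave 0.29 in 2aECKO and 0.041 in 2aiECKO. Pdss2, of ubiquinone side chain synthesis, was lowest in 2aECKO with -0.16, and Rabggtb, of Rab prenylation, lowest in 2aiECKO with -0.14 after -0.16 in 2aECKO. Ggps1, which makes the geranylgeranyl donor, lay within the range of this list.

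Mitochondrial and ketone body enzymes that handle the same acyl-CoA intermediates numbered 9, of which 7 were measured and 0 passed the size rule. Their medians were -0.0052 and 0.0095. Acat1, the mitochondrial relative of Acat2, stood at -0.0052 and -0.074, and Oxct1, of ketone use, was lowest with -0.16 and -0.081. At its other probe sets Oxct1 had -0.076, 0 and -0.075 in 2aECKO, and -0.086, -0.0067 and 0.061 in 2aiECKO. Aacs, which activates acetoacetate in the cytosol for lipid synthesis, was highest in 2aECKO with 0.15 and had 0.0095 in 2aiECKO, and Hadhb was highest in 2aiECKO with 0.14 after 0.047 in 2aECKO.

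Among 10 genes of Srebp-2 control and sterol uptake, 8 were measured. In 2aiECKO 0 were higher by the size rule, against 1.77 percent of the bright genes, and in 2aECKO 2 were, against 2.04 percent. These were Stard4, a sterol transfer protein, with log2 folds of 0.42 and 0.11, and Insig1, a sterol-dependent anchor of Scap and Srebp, with 0.40 and 0.16. Stard4 had 0.38 and 0.41 at its other probe sets in 2aECKO, but -0.051 and 0.071 at these in 2aiECKO. Srebf2, which encodes Srebp-2, had 0.16 and 0.049, and Scap, the escort of Srebp, -0.019 and -0.057, the lowest of the list in 2aiECKO. Insig2 was lowest in 2aECKO with -0.027 and had 0.056 in 2aiECKO, and Npc1, of lysosomal cholesterol export, was highest in 2aiECKO with 0.18 after 0.13. The list medians were 0.10 and 0.059. For comparison, 12 genes of fatty acid synthesis had medians of 0.27 and 0.070. By the size rule 4 were higher in 2aECKO and 1 in 2aiECKO, against the same 2.04 and 1.77 percent.

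**Figure D5:**
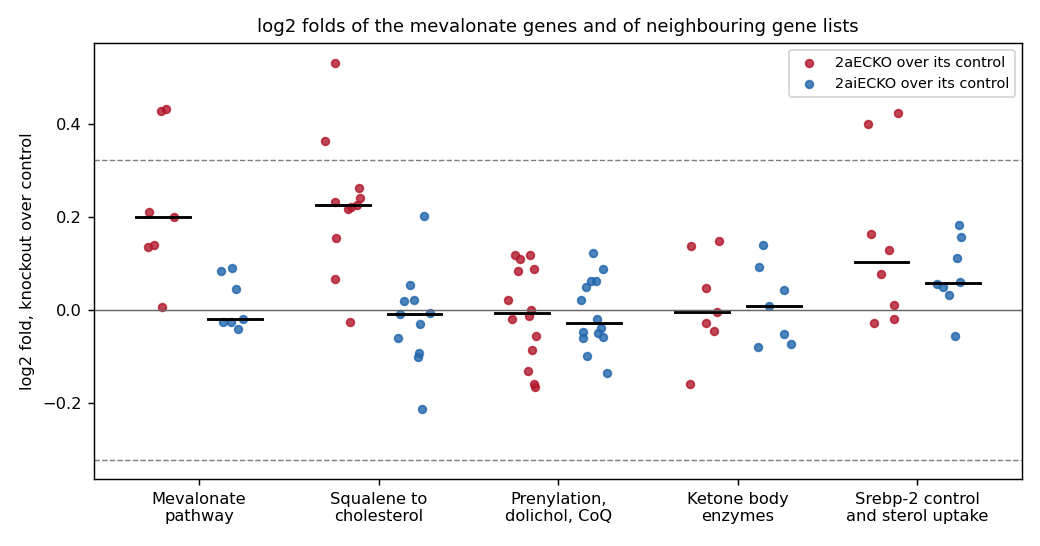
Log2 fold of knockout over control (vertical axis) for the mevalonate genes and 4 neighbouring gene lists, in 2aECKO (red) and 2aiECKO (blue); each point is 1 gene at its brightest probe set, spread sideways for display, black bars are medians and dashed lines mark 1.25-fold. The red medians of the mevalonate and squalene to cholesterol lists are 0.20 and 0.23, and those of the prenyl and ketone body lists are -0.0068 and -0.0052.

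Markers of cell types also differed between the pools. In bulk tissue fewer cells of a type and less RNA per cell cannot be told apart. Of the bright genes, 46.3 percent were above 0 in 2aECKO and 46.4 percent in 2aiECKO. By the size rule 2.04 and 1.77 percent of them were higher and 1.44 and 0.523 percent lower. In 2aECKO 10 of 12 astrocyte markers were above 0, 2 of them by the size rule, and their summed signal was 23777 against a control sum of 21448. In 2aiECKO 12 of 12 were above 0, 4 of them by the size rule, with 17259 against 14545. The median log2 fold of the markers was thus 0.15 and 0.27, and the mevalonate genes had 0.20 and -0.020 in the same pools. Of 9 markers of myelinating oligodendrocytes, cells that make much cholesterol for myelin, 3 were above 0 in 2aECKO, with a median of -0.073. In 2aiECKO 8 of 9 were, with a median of 0.17. Only 6 of the 9 had a mean signal of 50 or more, and Mog, Ermn and Opalin were dimmer. The summed signal was 10587 in 2aECKO against 9987, above its control though the median was below 0, and 7208 in 2aiECKO against 5705. By the size rule 1 of the 9, Mobp, was lower in 2aECKO and 1, Mbp, higher in 2aiECKO. Of 11 microglial markers, 2 were lower by the size rule in 2aECKO, P2ry12 and Tmem119, and 8 were higher in 2aiECKO, with medians of 0.082 and 0.45 and summed signals of 4882 against 4626 and of 6020 against 4164. Of 11 neuronal markers 1, Slc17a7, was lower in 2aECKO, and the medians were -0.081 and -0.044. Of 12 endothelial markers 1, Vwf, was lower in 2aiECKO, and the medians were 0.036 and -0.13. For 6 markers of oligodendrocyte precursors, with 0 past the size rule, they were 0.048 and 0.021. Of 3 red cell markers only Alas2, of haem synthesis, had a mean signal of 50 or more. Its signal was 119.6 in 2aECKO against 57.9, a log2 fold of 1.05 and the highest among the bright genes. Its log2 fold of -0.51 in 2aiECKO came from signals of 25.8 against 36.8, both below 50. The others, Hba-a1 and Slc4a1, were below 50 on every array, and the medians of the 3 were -0.094 and -0.10. The markers named in these sentences were chosen after their values were seen. The part of cell makeup in the values of the mevalonate genes was not tested.

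The genes nearest to the pair of medians of the mevalonate genes, by Euclidean distance over the 2 log2 folds, were Pak4, Baz2b, Pard6g, Mdm4 and Tspoap1, at distances from 0.0040 to 0.0078. Only 2 values per gene enter this measure, and 176 of 12419 other genes lay within 0.05.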

How the data were processed

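Cerebral RNA was pooled by genotype, from 5 to 6 animals per pool, and hybridized to 1 Affymetrix Mouse 430 2.0 array per pool. The files give 1 linear intensity per probe set, made by the authors by robust multichip averaging (RMA), in which background is adjusted and arrays are quantile-normalized. Their methods name the affy package, and the submitters' processing notes name Partek 6.6. Precision is limited by the number of arrays.

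Folds were formed on the log2 scale. The platform annotation pairs 34958 of 45101 probe sets with 1 gene symbol and 932 with several, and 9211 are unnamed here. Symbols were updated through gene identifiers of RefSeq (GRCm38.p6), which also gave the upstream sequences. Where windows on opposite strands overlapped, 1892 of 1892 were reverse complements of each other, so each sequence reads along its gene. The size rule for higher genes is that of the study's methods, and that for lower genes its mirror. The robust SD is the scaled median absolute deviation.

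The named genes were all 7 measured members, and from the neighbouring lists those past the size rule, the highest and lowest in each comparison, and Srebf2, Insig1, Fdft1 and Acat1 in any case. The members, the 14 gene lists of 139 genes and the comparisons were chosen with earlier results of these data known. The steps were tested on simulated data in which every added change was larger than the fold of the size rule, so smaller changes were not covered. Alternatives concerned the probe set, intensity trend (lowess fraction 0.3), centring, scale, control, minimum signal and fold. Python 3.11.15, numpy 2.4.6, pandas 2.3.3, scipy 1.17.1, statsmodels 0.14.6 and matplotlib 3.10.9 were used.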

Additional observations from a re-analysis of the deposited data

Results flagged for a closer look

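In 4 mevalonate genes the log2 folds of the 2 models had opposite signs, as in 34.4 percent of the 12426 genes whose mean signal reached 50. The difference, 2aECKO minus 2aiECKO, was 0.459 for Mvd, 0.162 for Hmgcs1, 0.16 for Mvk and 0.0468 for Ggps1. It was not tested, there being 1 array per group. The log2 folds in 2aiECKO behind these signs lay between -0.041 and -0.020, within the robust SD of 0.10 over all those genes, and Hmgcs1 was above 0 there at its 3 other bright probe sets.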

How the results depend on the processing

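The median log2 folds of the mevalonate genes in both models moved by less than the robust SD over all genes under the mean of all probe sets, omission of less specific probe sets (Pmvk then has none), trend removal, centring, quantile normalization over 4 arrays and the mean of both controls. In 2aiECKO, near 0, the median turned positive under the first pair of these settings. Higher genes in 2aECKO, 2 as reported, numbered 1 over the mean of all probe sets (Mvd) and 1 without less specific probe sets (Fdps), and 0 at a fold of 1.5. The mean lowers Fdps through its dim probe set. The other model's control shifts all genes by construction, the median over all genes then being 0.34 in 2aECKO and -0.36 in 2aiECKO. With it the medians were 0.342 and -0.14, their difference 0.565, the higher genes 5 and 1 and the lower genes in 2aiECKO 2. With both controls averaged the difference was 0.362, with 1 gene higher in 2aECKO and 1 lower in 2aiECKO. After quantile normalization over 4 arrays, chosen with the data seen, the other control gave medians of 0.0425 and 0.178, a difference of -0.0915, 0 higher genes in 2aECKO and 2 in 2aiECKO. Fdps then reversed to -0.0826 in 2aECKO. Both controls averaged gave 1 higher gene in each model. By construction, each such fold also holds how the control pools differ. No paired analysis was possible because each group has 1 array.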
